A study of Mus musculus with 16 samples.

Results

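The genes described here are 10 genes of major histocompatibility complex (MHC) class I antigen processing, measured in mouse liver after lipopolysaccharide (LPS, a component of bacterial outer membranes that activates Toll-like receptor 4). They are Tap1, Tap2, Tapbp, Psmb8, Psmb9, Psmb10, Psme1, Psme2, Nlrc5 and B2m, and they were picked out of the table by gene symbol, from a list drawn up with earlier results of these data known. All 10 passed the filter on low values and stood among the 15908 genes tested. Livers of male C57Bl/6 mice fell into 4 groups of 4 arrays: S534A mice given 1 mg/kg LPS, WT mice given the same dose, untreated S534A mice and untreated WT mice. S534A mice were homozygous for a knock-in that replaces serine with alanine at that position of p65, the NF-kB subunit encoded by Rela, in every cell. They were made in PTL1 embryonic stem cells and backcrossed to C57Bl6/J before interbreeding, and the WT livers came from C57Bl6/J mice. The time between LPS and tissue collection and the age of the mice are not given in these sources, and the controls were untreated and not injected with a vehicle. The series text names an LPS dose for the untreated S534A group as well, and the sample titles, which call these livers untreated, were followed. The labels do not say that each array held a separate mouse, so the p-values measure the spread between these samples.

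MHC class I molecules show short peptides from inside the cell to CD8 T cells. Peptides are cut from proteins by the proteasome, whose standard active-site subunits can be replaced by the interferon-inducible subunits Psmb8, Psmb9 and Psmb10 to form the immunoproteasome, and the PA28 cap made of Psme1 and Psme2 changes how the core is entered and left. Tap1 and Tap2 together form the transporter that carries peptides into the endoplasmic reticulum, where tapasin, encoded by Tapbp, holds empty class I molecules at the transporter, and B2m encodes the light chain that every class I molecule needs. Nlrc5 is the transactivator that drives class I genes, many of which also answer to interferons through STAT and IRF factors and to NF-kB. In the liver, hepatocytes, Kupffer cells and sinusoidal endothelial cells can all present antigen on class I.

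The genes of this group lie close together in part. On chromosome 17, Psmb9, Tap1, Psmb8 and Tap2 follow each other with 0 other protein-coding genes between neighbours, and Tapbp lies on the same chromosome. Psme1 and Psme2 are on chromosome 14 with 1 protein-coding gene between them, Nlrc5 and Psmb10 are both on chromosome 8, and B2m is on chromosome 2. RefSeq promoter windows of GRCm38.p6, from 250 bases before to 50 bases after a gene's start, were found for 8 of the 10 genes, and none was matched for Nlrc5 or Tap2. The windows of Tap1 and Psmb9 overlap over 275 of their 300 bases, because the start sites lie 226 bases apart on opposite strands. Each window was searched on both strands for the interferon-stimulated response element (ISRE, searched as a pair of GAAA separated by any 2 bases), the STAT-binding gamma-activated sequence (GAS, TTCNNNGAA), the NF-kB motif kappaB and CCAAT. ISRE was found in the windows of B2m and Psme1, GAS in that of Psmb8 and kappaB in that of B2m. CCAAT was found in those of B2m, Tapbp, Tap1 and Psmb9, the last a match that Tap1 and Psmb9 share. Of 32851 such windows in the table, 3.44% held ISRE, 8.3% GAS, 8.46% kappaB and 37.4% CCAAT. A match is a description of letters and not of a bound site. The windows of Tap1, which had the largest change after LPS among the 10 genes at 1 probe set each, of an immunoproteasome subunit and of the gene with no detected change are printed 5′ to 3′ on the gene's strand, with matches in capitals. The Tap1 window is chr17:34187306-34187605 (plus strand) with CCAAT in capitals, the Psmb8 window is chr17:34197945-34198244 (plus strand) with GAS in capitals, and the B2m window is chr2:122147437-122147736 (plus strand) with ISRE, kappaB and CCAAT in capitals in that order.
Tap1: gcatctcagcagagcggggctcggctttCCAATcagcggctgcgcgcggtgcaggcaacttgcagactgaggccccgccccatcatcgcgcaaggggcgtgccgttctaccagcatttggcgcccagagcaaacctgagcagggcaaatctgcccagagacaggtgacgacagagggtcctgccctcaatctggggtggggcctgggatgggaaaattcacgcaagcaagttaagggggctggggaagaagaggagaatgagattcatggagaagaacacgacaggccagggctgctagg
Psmb8: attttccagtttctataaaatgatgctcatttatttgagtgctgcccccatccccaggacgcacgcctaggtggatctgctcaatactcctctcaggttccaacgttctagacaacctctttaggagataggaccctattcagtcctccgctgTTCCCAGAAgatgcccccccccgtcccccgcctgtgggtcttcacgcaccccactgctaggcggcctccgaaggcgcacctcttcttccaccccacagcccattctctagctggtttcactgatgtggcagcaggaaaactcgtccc
B2m: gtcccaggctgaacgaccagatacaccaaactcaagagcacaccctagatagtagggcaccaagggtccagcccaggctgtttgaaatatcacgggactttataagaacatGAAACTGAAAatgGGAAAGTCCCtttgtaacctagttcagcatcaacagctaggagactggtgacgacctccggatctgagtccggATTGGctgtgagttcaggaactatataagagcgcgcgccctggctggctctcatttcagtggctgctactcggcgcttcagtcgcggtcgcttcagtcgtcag

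After LPS, 9 of the 10 genes rose in S534A livers and the same 9 rose in WT livers, B2m being the one that did not pass the test. The test was limma with Benjamini-Hochberg adjustment over all 15908 genes at a threshold of 0.05, and levels are log2 RMA values. Over all genes tested, 14.2% rose in S534A livers and 14.9% in WT livers. The median log2 change of the 10 genes was 1.49 in S534A livers and 1.47 in WT livers, against a median over all genes of -0.03 in S534A livers and -0.05 in WT livers. In S534A livers all LPS arrays lay above all untreated arrays for 9 of the 10 genes, and 16.4% of all genes were separated in this direction. In WT livers this held for 10 of 10, with 12.7% of all genes, and B2m was separated there by less than the second decimal of the log2 scale. The LPS comparisons of the genotypes contrast different arrays, but 1 fit over all 16 arrays gave the estimate of the spread for both.

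**Figure D1:**
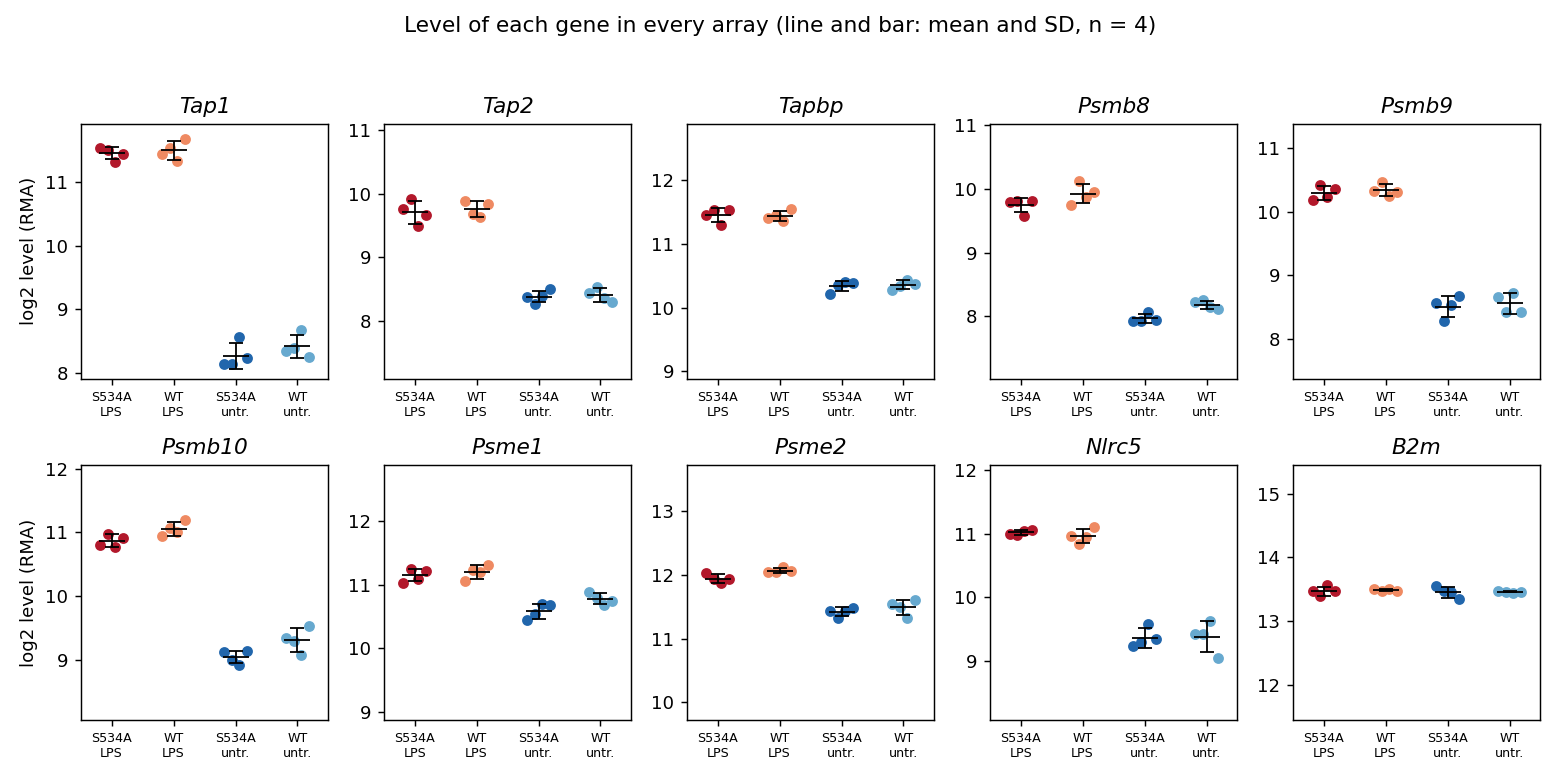
Log2 level (RMA) of each gene in every array, with the mean and SD of each group (n = 4); every panel spans 4 log2 units, and panels are centred separately, so heights are not comparable between genes. In 9 panels the S534A and WT arrays given LPS lie above the untreated arrays of both genotypes, and in the B2m panel all 16 arrays lie between 13.34 and 13.56.

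Tap1, which encodes a subunit of the peptide transporter, had the largest change of the 10 genes when each was described by its probe set of highest mean. Single probe sets of Nlrc5 reached larger changes. Its own log2 level was 11.54, 11.51, 11.32 and 11.45 in S534A livers given LPS, against 8.15, 8.15, 8.57 and 8.24 in untreated S534A livers. WT livers had 11.45, 11.54, 11.34 and 11.68 after LPS, against 8.34, 8.40, 8.67 and 8.25 without treatment. The LPS arrays of both genotypes overlapped each other and lay more than 2 log2 units above every untreated array. Tap1 rose by 3.18 ± 0.11 log2 (SE, 9.07-fold, limma adjusted p = 3.91e-13) in S534A livers and by 3.09 ± 0.11 (8.49-fold, adjusted p = 5.75e-13) in WT livers. Counted from the largest rise of the 15908 genes, this change ranked 82 in S534A livers and 91 in WT livers.

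Tap2 encodes the partner subunit of the transporter. Tap2 had log2 levels of 9.76, 9.92, 9.49 and 9.67 in S534A livers given LPS, against 8.37, 8.27, 8.39 and 8.5 in untreated S534A livers. In WT livers the levels were 9.89, 9.68, 9.64 and 9.83 after LPS, against 8.44, 8.54, 8.36 and 8.30 without treatment. No LPS array reached down to an untreated one in either genotype. The change was 1.33 ± 0.09 log2 (2.51-fold, adjusted p = 4.01e-09) in S534A livers and 1.35 ± 0.09 (2.55-fold, adjusted p = 3.27e-09) in WT livers.

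Tapbp, which encodes tapasin, was at 11.45, 11.54, 11.29 and 11.53 in S534A livers given LPS, against 10.22, 10.36, 10.40 and 10.39 in untreated S534A livers. WT livers had 11.40, 11.45, 11.36 and 11.55 after LPS, against 10.27, 10.34, 10.44 and 10.37 without treatment. LPS and untreated arrays did not overlap in either genotype. Tapbp rose by 1.11 ± 0.07 log2 (2.16-fold, adjusted p = 1.87e-09) in S534A livers and by 1.09 ± 0.07 (2.12-fold, adjusted p = 2.5e-09) in WT livers.

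The 3 immunoproteasome subunits rose by 1.74 to 1.83 log2. Psmb8, which takes the chymotrypsin-like site of Psmb5, had log2 levels of 9.80, 9.81, 9.58 and 9.81 in S534A livers given LPS, against 7.93, 7.92, 8.06 and 7.94 in untreated S534A livers. In WT livers Psmb8 was at 9.75, 10.12, 9.87 and 9.95 after LPS, against 8.23, 8.25, 8.14 and 8.11 without treatment. LPS arrays stood apart from untreated arrays in both genotypes, with a change of 1.78 ± 0.08 log2 (3.44-fold, adjusted p = 1.6e-11) in S534A livers and 1.74 ± 0.08 (3.34-fold, adjusted p = 2.14e-11) in WT livers.

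Psmb9, which replaces the caspase-like subunit Psmb6, was at 10.19, 10.42, 10.23 and 10.35 in S534A livers given LPS, against 8.56, 8.29, 8.53 and 8.67 in untreated S534A livers. WT levels were 10.33, 10.47, 10.25 and 10.31 after LPS, against 8.66, 8.42, 8.73 and 8.43 without treatment. The groups did not overlap in either genotype, and Psmb9 rose by 1.78 ± 0.09 log2 (3.44-fold) in both, with adjusted p = 1.29e-10 in S534A livers and 1.31e-10 in WT livers. Psmb10, which replaces the trypsin-like subunit Psmb7, was at 10.80, 10.98, 10.77 and 10.91 in S534A livers given LPS, against 9.12, 9.0, 8.92 and 9.13 in untreated S534A livers. WT livers had 10.94, 11.07, 11.01 and 11.19 after LPS, against 9.34, 9.30, 9.07 and 9.53 without treatment. Here too every LPS array lay above every untreated one, and the change was 1.83 ± 0.09 log2 (3.54-fold, adjusted p = 7.58e-11) in S534A livers and 1.74 ± 0.09 (3.34-fold, adjusted p = 1.48e-10) in WT livers.

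The standard subunits at the same sites changed by -0.18 to 0.17 log2. Psmb5 had log2 levels of 11.79 to 12.01 in S534A livers given LPS, against 12.01 to 12.11 in untreated ones, and 11.91 to 11.99 in WT livers given LPS, against 11.93 to 12.23 in untreated ones. Its change was -0.12 ± 0.07 (adjusted p = 0.192) in S534A livers and -0.14 ± 0.07 (adjusted p = 0.126) in WT livers; with every array centred on its median, Psmb5 passed as lower in S534A livers (-0.22, adjusted p = 0.00942) and in WT livers (-0.25, adjusted p = 0.00417). It also passed as lower in WT livers with array weights (-0.20, adjusted p = 0.0178) and without untreated array 2 (-0.19, adjusted p = 0.0456). Psmb6 changed by 0.00 ± 0.07 (adjusted p = 0.969) in S534A livers. In WT livers Psmb6 fell by 0.18 ± 0.07 (adjusted p = 0.0365), a call lost under 7 alternatives, among them leaving out untreated array 1 (adjusted p = 0.0615) or 2 (0.11), or LPS array 1 (0.123) or 4 (0.093). Psmb7 rose by 0.17 ± 0.07 (adjusted p = 0.0481) in S534A livers, a call lost under 9 alternatives. Leaving out LPS array 2, 3 or 4 gave adjusted p values of 0.0802, 0.156 and 0.0622, and leaving out untreated array 2, 3 or 4 gave 0.108, 0.0746 and 0.12. In WT livers Psmb7 changed by 0.13 ± 0.07 (adjusted p = 0.119).

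Within each array, the difference between an immunoproteasome subunit and its standard counterpart was compared between LPS and untreated livers. Only the change of such a difference can be read, since levels of different probe sets are not on a common scale. The Psmb8 minus Psmb5 difference moved up by 1.90 ± 0.09 log2 (SE) in S534A livers and 1.89 ± 0.11 in WT livers. For Psmb9 minus Psmb6 the shift was 1.79 ± 0.09 in S534A livers and 1.96 ± 0.13 in WT livers, and for Psmb10 minus Psmb7 it was 1.66 ± 0.09 in S534A livers and 1.61 ± 0.13 in WT livers. In all 6 tests no LPS array overlapped an untreated one, and the exact two-sided permutation p was 0.0286, the smallest that 4 against 4 arrays allow. This outcome followed from the wide separation of the immunoproteasome subunits given above, so the p-values add no separate evidence.

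**Figure D2:**
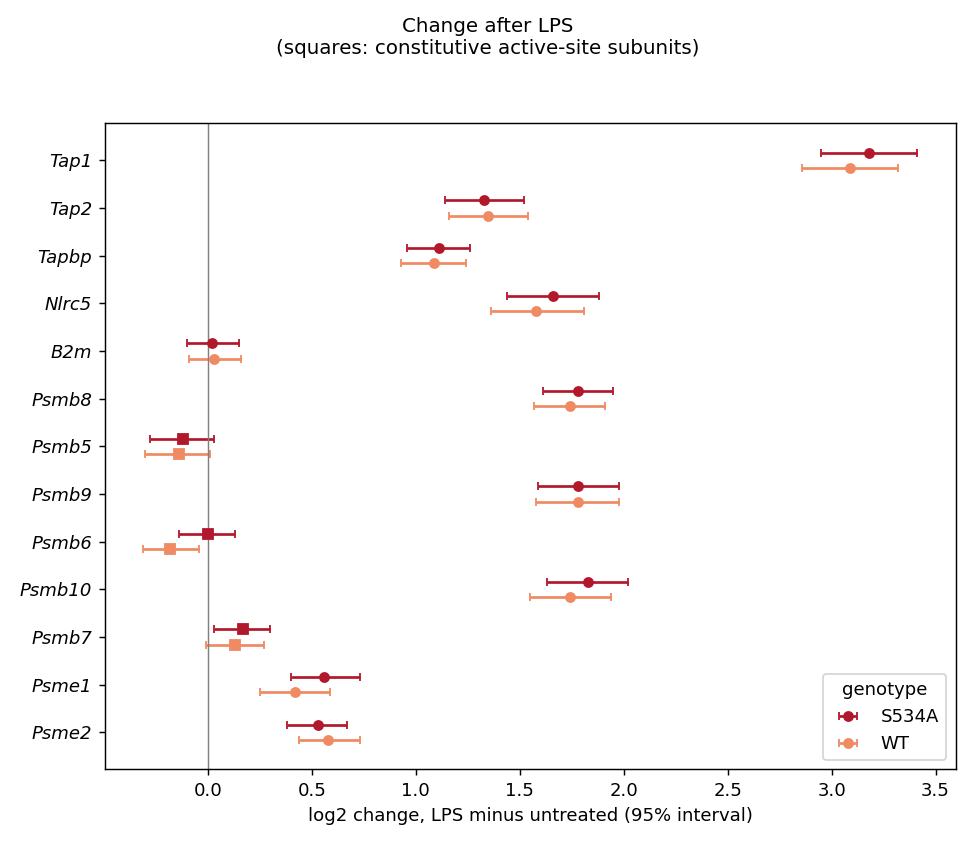
Log2 change after LPS (LPS minus untreated, with 95% interval) in S534A and WT livers, for the 10 genes (circles) and the standard active-site subunits Psmb5, Psmb6 and Psmb7 (squares). Tap1 is farthest to the right at 3.18 in S534A and 3.09 in WT, the immunoproteasome subunits sit between 1.74 and 1.83, and the squares and B2m sit between -0.18 and 0.17.

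The probe sets of the neighbours Tap1 and Psmb9, whose promoter windows overlap, can be set side by side within arrays. This pair was chosen after its values were seen, so no test is given. The Tap1 minus Psmb9 difference within an array was 1.09 to 1.36 in S534A livers given LPS, against -0.43 to 0.03 in untreated S534A livers. In WT livers it was 1.08 to 1.37 after LPS, against -0.32 to -0.02 without treatment. The difference shifted by 1.40 ± 0.13 in S534A livers and 1.31 ± 0.10 in WT livers (SE), and in each genotype all LPS arrays lay above all untreated ones. Each gene has 1 probe set here, and the changes of the 19 Nlrc5 probe sets differ among themselves by more than this, so the values describe these probe sets.

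Both PA28 subunit genes rose, by less than 1 log2 unit. Psme1 was at 11.03, 11.25, 11.09 and 11.22 in S534A livers given LPS, against 10.44, 10.54, 10.69 and 10.68 in untreated S534A livers. WT levels were 11.05, 11.23, 11.20 and 11.31 after LPS, against 10.88, 10.79, 10.68 and 10.74 without treatment. The groups stood apart by a narrow margin, and Psme1 rose by 0.56 ± 0.08 log2 (1.48-fold, adjusted p = 1.85e-05) in S534A livers and by 0.42 ± 0.08 (1.34-fold, adjusted p = 0.000333) in WT livers. Psme2 was at 12.03, 11.94, 11.87 and 11.94 in S534A livers given LPS, against 11.43, 11.32, 11.44 and 11.48 in untreated S534A livers. WT livers had 12.05, 12.05, 12.13 and 12.07 after LPS, against 11.54, 11.50, 11.32 and 11.61 without treatment. No array overlapped between LPS and untreated livers. Psme2 rose by 0.53 ± 0.07 (1.44-fold, adjusted p = 7.52e-06) in S534A livers and by 0.58 ± 0.07 (1.5-fold, adjusted p = 2.57e-06) in WT livers.

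Nlrc5, the class I transactivator, is described by 1 of 19 probe sets, the one with the highest mean, and the other 9 genes had 1 probe set each. Its log2 level was 10.99, 10.98, 11.04 and 11.06 in S534A livers given LPS, against 9.24, 9.29, 9.58 and 9.35 in untreated S534A livers. WT livers had 10.97, 10.84, 10.94 and 11.11 after LPS, against 9.43, 9.42, 9.62 and 9.04 without treatment. The groups did not overlap, and this probe set rose by 1.66 ± 0.11 log2 (3.15-fold, adjusted p = 1.44e-09) in S534A livers and by 1.58 ± 0.11 (adjusted p = 2.5e-09) in WT livers. The size of the Nlrc5 change depended on the probe set. Tested one by one, all 19 rose in both genotypes, with changes of 1.37 to 3.45 (median 2.69) in S534A livers and 1.39 to 3.48 (median 2.71) in WT livers. In WT livers 17 of the other probe sets changed by more than the one used and 1 by less. With the mean of its probe sets, Nlrc5 rose by 2.59 in S534A livers and by 2.62 in WT livers.

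**Figure D3:**
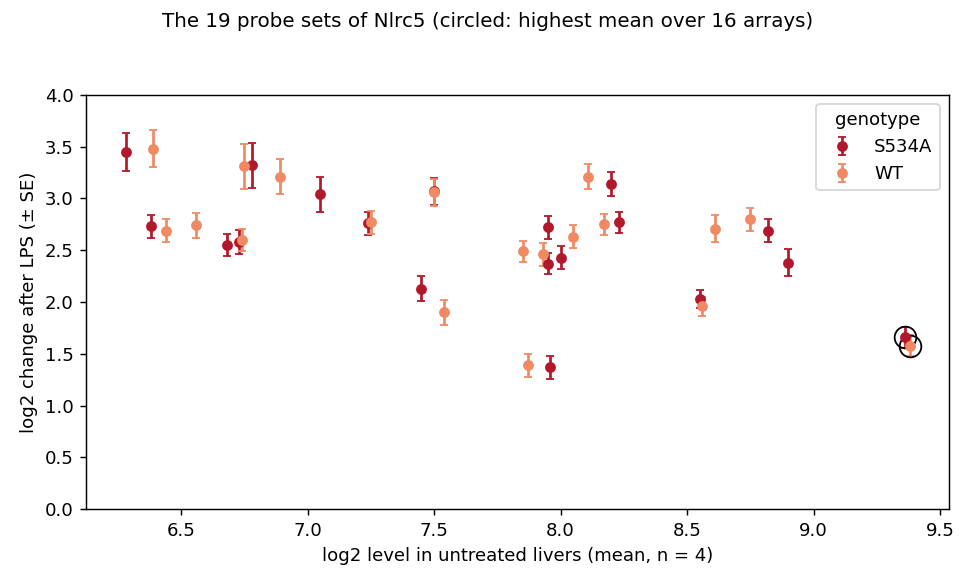
Log2 change after LPS (± SE) of each of the 19 Nlrc5 probe sets against its mean log2 level in untreated livers (n = 4), in S534A and WT livers. The circled probe set of highest mean lies near the bottom of the range, which runs from 1.37 to 3.45 in S534A and from 1.39 to 3.48 in WT.

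B2m, the light chain gene, had no detected change. Its log2 level was 13.48, 13.39, 13.56 and 13.47 in S534A livers given LPS, against 13.55, 13.47, 13.45 and 13.34 in untreated S534A livers. The WT levels were 13.50, 13.47, 13.50 and 13.48 after LPS, against 13.47, 13.46, 13.44 and 13.46 without treatment. The change was 0.02 ± 0.06 (95% interval -0.10 to 0.15, adjusted p = 0.799) in S534A livers and 0.03 ± 0.06 (-0.09 to 0.16, adjusted p = 0.737) in WT livers. B2m lay near the top of the arrays' scale, with a mean of 13.47 where the highest values of single arrays were 14.37 to 14.54. Of 103 other genes with means between 13 and 14, 40 passed the test in S534A livers and 34 in WT livers (18 rose and 16 fell). Over all 15908 genes, 7225 passed in S534A livers and 7139 in WT livers (14.9% rose and 29.9% fell). In the range of 13 to 14 a smaller share thus passed in both genotypes. In WT livers the largest rise in that range was 1.08 (Serpina3n, an acute-phase gene) and the largest fall was -0.43.

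Other genes of the pathway moved in both directions. Of all genes tested, 14.2% rose and 31.2% fell in S534A livers, and 14.9% rose and 29.9% fell in WT livers, which are the shares to read the following counts against. Of 21 class I heavy chain genes, 8 could be tested, because 12 have no probe set of their own symbol alone, H2-K1 and H2-D1 among them, and 1 lay below the filter on low values. In each genotype 5 of the 8 rose and 1 fell. H2-Q4, a Qa-region heavy chain gene, was at 11.67 to 11.90 in S534A livers given LPS, against 9.02 to 9.29 in untreated S534A livers. In WT livers it was at 11.60 to 11.95 after LPS, against 8.88 to 9.42 without treatment, with no overlap in either genotype. H2-Q4 rose by 2.70 ± 0.11 log2 (adjusted p = 2.39e-12) in S534A livers and by 2.56 ± 0.11 (4.74e-12) in WT livers. H2-M3, whose product presents formylated bacterial peptides, rose by 1.14 in S534A livers and 1.19 in WT livers, H2-T24 by 1.16 in S534A livers and 1.24 in WT livers, and H2-T10 by 0.69 in S534A livers and 0.72 in WT livers. The gene that fell was Mr1, which encodes a class I-like molecule that presents microbial vitamin metabolites, by 1.45 ± 0.17 in S534A livers and 0.96 ± 0.17 in WT livers. Heavy chain genes are close copies of each other, and binding of one gene's RNA to another's probes was not assessed.

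Of 13 tested genes of peptide trimming and loading, 2 rose and 2 fell in S534A livers, and 3 rose and 2 fell in WT livers. In S534A livers the share that rose was close to that of all genes, and in both genotypes the share that fell was below it. Tapbpl, which encodes the tapasin-related peptide editor, was at 10.70 to 10.89 in S534A livers given LPS, against 8.53 to 8.60 in untreated ones, and at 10.69 to 11.02 in WT livers given LPS, against 8.79 to 8.86 in untreated ones. It rose by 2.24 ± 0.07 (adjusted p = 2.27e-13) in S534A livers and by 2.00 ± 0.07 (1.05e-12) in WT livers. Erap1, the aminopeptidase that trims peptides in the endoplasmic reticulum, rose by 0.53 in S534A livers and 0.67 in WT livers. The cytosolic peptidases Thop1 and Blmh fell, Thop1 by 0.26 in S534A livers and 0.33 in WT livers, and Blmh by 0.64 in S534A livers and 0.31 in WT livers. Of the 14 constitutive 20S core genes, 6 rose in each genotype. Psma5, an outer-ring subunit, rose by 0.83 in S534A livers and 0.64 in WT livers, Psma7 by 0.51 in S534A livers and 0.49 in WT livers, and Psma1 by 0.49 in S534A livers and 0.44 in WT livers. Psma4 rose by 0.21 in S534A livers, a call lost with median centring (0.11, adjusted p = 0.106), and by 0.29 in WT livers. In this list 0 genes fell in S534A livers and 2 in WT livers. Across the alternatives this count of genes that fell ran from 0 to 4 in both genotypes, and in WT livers it was 0 without LPS array 1 or 4 or untreated array 1 and 1 without untreated array 2.

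Among 8 genes of proteasome assembly and other activators, 3 rose and 2 fell in S534A livers, and 2 rose and 2 fell in WT livers. Pomp, the maturation factor of new cores, rose by 0.26 in S534A livers and 0.25 in WT livers, and Psmf1, which encodes the proteasome inhibitor PI31, by 0.62 in S534A livers and 0.45 in WT livers. The assembly chaperone genes Psmg1 and Psmg2 fell, Psmg1 by 0.37 in S534A livers and 0.52 in WT livers, and Psmg2 by 0.49 in S534A livers and 0.51 in WT livers. Psme3, the gene of the nuclear relative of Psme1 and Psme2, changed by -0.03 ± 0.07 (adjusted p = 0.755) in S534A livers and -0.09 ± 0.07 (0.358) in WT livers.

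Of 16 tested genes of interferon signalling and class I transactivation, 10 rose and 4 fell in S534A livers, and 9 rose and 3 fell in WT livers. The genes of this list described next all rose, so they do not stand for those that fell. Stat2, a subunit of the factor that binds ISRE, rose by 1.76 in both genotypes, and its partner Irf9 by 1.34 in S534A livers and 1.15 in WT livers. Jak2, a receptor-associated kinase, rose by 1.60 in S534A livers and 1.89 in WT livers, and the transcription factor gene Irf8 by 1.33 in S534A livers and 1.28 in WT livers. Irf1, a transcription factor that acts on Tap1 and Psmb9, was at 10.45 to 10.64 in S534A livers given LPS, against 8.45 to 9.08 in untreated ones. In WT livers Irf1 was at 10.30 to 10.64 after LPS, against 8.99 to 9.48 without treatment, so that no LPS array overlapped an untreated one. It rose by 1.79 ± 0.15 in S534A livers and 1.23 ± 0.15 in WT livers, and the difference between these changes did not pass (0.56 ± 0.21, adjusted p = 0.951). The number of genes of this list that fell ran from 2 to 4 in S534A livers and from 0 to 5 in WT livers across the alternatives. In S534A livers it was 2 without untreated array 3. In WT livers it was 1 without untreated array 1, 3 or 4 or LPS array 1 or 3, and 5 without LPS array 2.

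Genes of the MHC class II pathway, which presents peptides from outside the cell, fell or did not pass the test. Of 10 tested, 0 rose and 6 fell in each genotype, with a median change of -0.48 in S534A livers and -0.46 in WT livers. Ifi30, a thiol reductase of antigen breakdown, fell by 1.03 in both genotypes. H2-DMa, a subunit of the peptide exchange factor, fell by 0.91 in S534A livers and 1.15 in WT livers, the class II alpha chain gene H2-Aa by 0.85 in S534A livers and 0.75 in WT livers, and H2-Ob by 0.51 in S534A livers and 0.31 in WT livers. H2-Ob lay at 5.89 to 6.55 over all arrays, and H2-DMa at 5.94 to 6.49 after LPS. These levels are near the array medians of 6.25 to 6.42, so the sizes of these 2 falls are less certain.

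**Figure D4:**
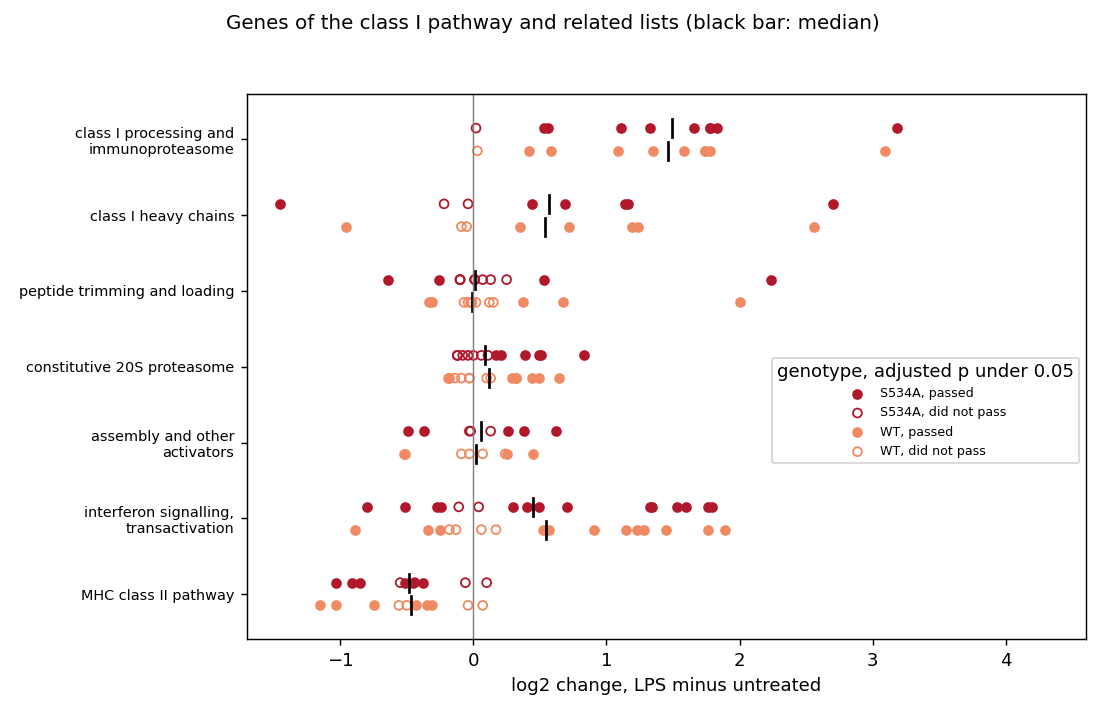
Log2 change after LPS of every tested gene of the 10 described genes and the 6 pathway lists, in S534A (upper row of each list) and WT (lower row), filled where adjusted p was under 0.05, with black bars at the medians. The medians are 1.49 in S534A and 1.47 in WT for the 10 genes, and -0.48 in S534A and -0.46 in WT for the class II pathway.

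In whole liver RNA, fewer cells of a type and less RNA per cell cannot be told apart, and markers of several cell types moved together with the changes above. Of 12 neutrophil markers 11 rose in each genotype, and the log2 of their summed level was 11.19 to 11.67 in S534A livers given LPS, against 9.35 to 9.50 in untreated ones, and 11.03 to 11.85 in WT livers given LPS, against 9.40 to 9.42 in untreated ones. Of 12 Kupffer cell markers 10 fell and 1 rose in each genotype, with sums of 11.59 to 12.02 in S534A livers given LPS, against 12.76 to 13.33 in untreated ones, and 11.90 to 12.23 in WT livers given LPS, against 13.03 to 13.55 in untreated ones. Of 11 sinusoidal endothelial markers 9 fell and 2 rose in each genotype, and the number that rose was 1 under 2 of 19 alternatives in S534A livers (untreated array 2 left out among them) and under 10 of 19 in WT livers (among them any LPS array, or untreated array 1, 2 or 4, left out). Of the 4 tested monocyte markers 3 rose in S534A livers and 2 in WT livers. The marker called in S534A livers alone, F13a1 (0.22), lay at 5.48 to 5.80 there, below the array medians of 6.25 to 6.42. Of the 8 tested T and NK cell markers, 4 others lying below the filter on low values, 1 rose in each genotype (Gzmb), and 0 fell in S534A livers and 1 in WT livers. Across the alternatives that count of markers that fell ran from 0 to 3 in S534A livers (1 without LPS array 4) and from 0 to 4 in WT livers (0 without LPS array 1 and 2 without untreated array 2). Of the 8 dendritic cell markers 2 fell in each genotype, with a range of 1 to 3 in S534A livers (1 without LPS array 1 or 3 or untreated array 3) and 1 to 4 in WT livers (1 without LPS array 1 or untreated array 1, 2 or 3, and 4 without untreated array 4). Of the 4 tested B cell markers 2 fell in each genotype, with a range of 1 to 4 in both. Many markers of the dendritic, T and NK and B cell lists lay near or below the array medians of 6.25 to 6.42. Counts of those markers that fell or did not pass therefore say little about these cells. Of the 9 tested hepatocyte markers 1 rose (Fgb, 0.32) and 1 fell (Asgr1, -0.26) in S534A livers, and in WT livers 3 rose (Fgb, 0.30; Hnf4a, 0.28; Apob, 0.16) and 1 fell (Asgr1, -0.36). Across the alternatives 1 to 2 hepatocyte markers rose in S534A livers and 1 to 3 in WT livers, and 1 to 4 fell in each. The hepatocyte markers had sums of 16.65 to 16.71 in S534A livers given LPS, against 16.63 to 16.69 in untreated ones, and 16.68 to 16.71 in WT livers given LPS, against 16.64 to 16.69 in untreated ones. The part of cell composition in the results was not tested. The clock gene Dbp was at 7.22 to 8.87 in S534A livers given LPS and 7.55 to 9.09 in WT livers given LPS. It split the untreated livers, at 7.33 in S534A array 3 and 7.85 to 8.45 in WT arrays 1 and 3, while the other untreated arrays were at 10.98 to 11.80. Another clock gene, Arntl, was at 9.17 to 9.71 in those 3 untreated arrays, at 8.33 in untreated S534A array 4 and at 6.35 to 6.43 in the other 4 untreated arrays. Every call of the 10 genes after LPS was kept without the 3 arrays low in Dbp, and without untreated S534A array 4.

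The genotypes were compared within each treatment. After LPS, 0 of the 10 genes differed between S534A and WT livers, and 0% of all 15908 genes passed by limma, with 477 at an unadjusted p under 0.05. By that unadjusted mark 1 of the 10 genes is counted, Psmb8, with a difference of -0.18 ± 0.08 log2 (SE, limma adjusted p = 1). The 10 differences ran from -0.19 (Psmb10) to 0.06 (Nlrc5), and 8 of 10 were negative, against 51.2% of all genes. Across the alternatives the differences of Tap1, Tap2, Tapbp and B2m took both signs. Psme2 was the one gene whose S534A arrays, at 11.87 to 12.03, all lay below the WT arrays, at 12.05 to 12.13. This direction of separation held for 1.29% of all genes, and the Psme2 difference of -0.13 ± 0.07 did not pass (adjusted p = 1).

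Without treatment 0 of the 10 genes differed between S534A and WT livers, and 0.0126% of all genes passed, which was 2 genes, with 1412 at an unadjusted p under 0.05. All 10 differences were negative, from -0.27 to -0.01, and 50.8% of all genes had a negative difference. Not all of these signs were stable. Across the alternatives Tap2 ran from -0.07 to 0.02, Tapbp from -0.04 to 0.03 and Psmb9 from -0.10 to 0.08. Nlrc5 ran from -0.13 to 0.06 and B2m from -0.05 to 0.03, while the differences of the remaining genes stayed negative. Single Nlrc5 probe sets had untreated means in S534A livers both above and below those in WT livers. Of the 10 genes 3 had an unadjusted limma p under 0.05: Psmb10 (-0.27 ± 0.09, adjusted p = 0.373), Psmb8 (-0.22 ± 0.08, adjusted p = 0.435) and Psme1 (-0.19 ± 0.08, adjusted p = 0.493). Psmb8 arrays of untreated S534A livers, at 7.92 to 8.06, all lay below those of untreated WT livers, at 8.11 to 8.25, a separation found for 3.62% of all genes. For Psmb10 the arrays overlapped, at 8.92 to 9.13 in S534A livers and 9.07 to 9.53 in WT livers. For Psme1 the overlap was narrow, with 10.44 to 10.69 in S534A livers and 10.68 to 10.88 in WT livers. Across the alternatives the adjusted p of Psmb8 ran from 0.081 to 0.79, that of Psmb10 from 0.182 to 0.749 and that of Psme1 from 0.264 to 0.901.

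The difference between the LPS changes of the genotypes was tested as an interaction. Of the 10 genes 0 passed, and 0% of all genes did, with 766 of all genes and 0 of the 10 at an unadjusted p under 0.05. With each gene at its probe set of highest mean, the change in S534A livers minus that in WT livers ran from -0.05 (Psme2) to 0.14 (Psme1). For these probe sets no bound of a 95% interval lay farther from 0 than 0.42 log2. For Tap1 it was 0.10 ± 0.15 (95% interval -0.23 to 0.42, adjusted p = 0.969), for Psmb8 0.04 ± 0.11 (-0.20 to 0.28, adjusted p = 0.985) and for Nlrc5 0.07 ± 0.15 (-0.24 to 0.39, adjusted p = 0.977). Among the 19 Nlrc5 probe sets the interaction ran from -0.32 to 0.22 with 0 passing, and the bound of 0.42 does not cover the probe sets not used. The 95% intervals are for each gene by itself and give the differences compatible with its values. They do not give the size of difference that could have gone undetected, because calls were adjusted over all genes. The p-values do not show that the genotypes respond alike.

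**Figure D5:**
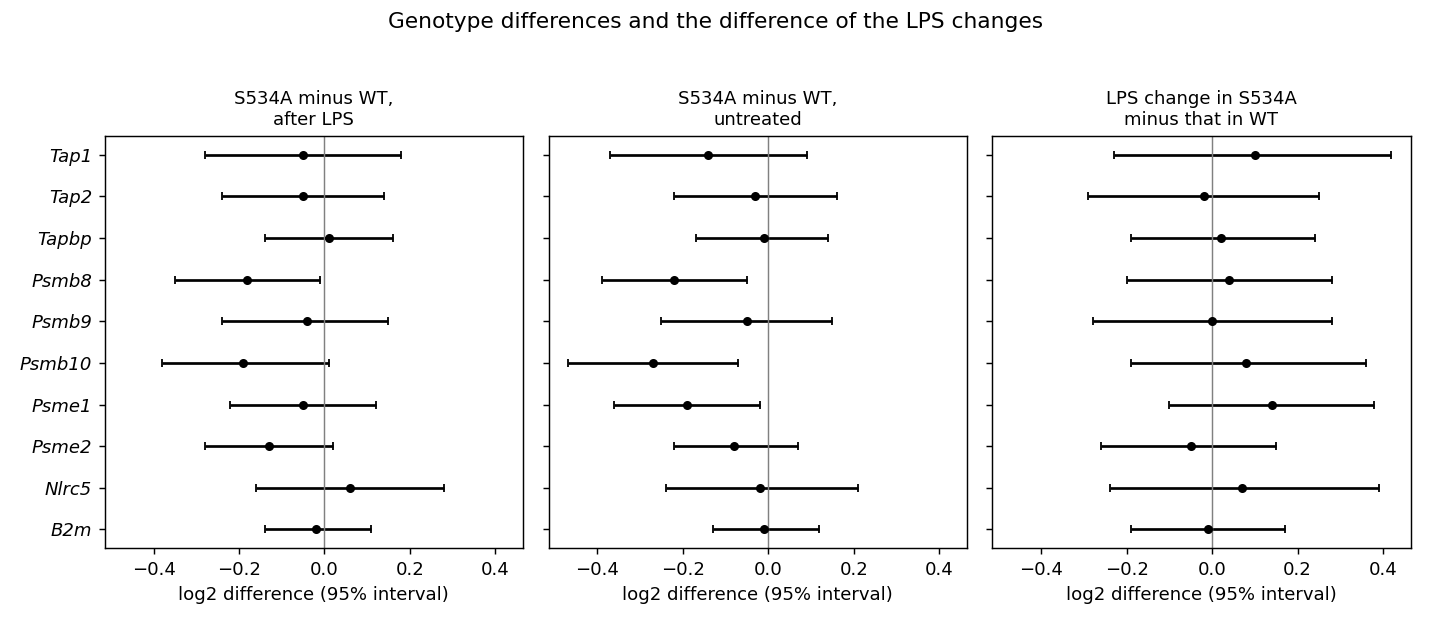
Log2 difference (with 95% interval) for each of the 10 genes: S534A minus WT after LPS (left), S534A minus WT untreated (middle) and the LPS change in S534A minus that in WT (right). All points lie between -0.27 and 0.14, all 10 are below 0 in the middle panel, and no difference passed the test. Nlrc5 is shown at its probe set of highest mean. In the middle panel the signs of Tap2, Tapbp, Psmb9, Nlrc5 and B2m were not kept across the alternatives.

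Over all 16 arrays, deviations from the group means gave 45 pairwise correlations with a median Pearson r of 0.232, 29 of them positive, from -0.724 (Tapbp and B2m) to 0.736 (Tap1 and Nlrc5). Every pair with B2m was negative, the weakest at -0.141 (with Nlrc5). Arrays share their normalization, so these values describe the arrays. The deviations of the 10 genes, B2m included, were also averaged, each gene first scaled to unit SD. The genes outside the group that followed this mean most closely over 16 arrays were Reep5 (r = 0.889), Pmvk (0.87), Srebf2 (0.859), Cfl1 (0.855) and Ift43 (0.852). Picking the highest r among all genes tested favours high values, and no p-value is given. After LPS these genes changed by -0.55 (Pmvk) to 0.25 (Ift43) log2 in S534A livers, where the median of the 10 genes was 1.49. In WT livers they changed by -0.47 (Pmvk) to 0.13 (Ift43), against a median of 1.47. Shared control of these genes with the 10 was not tested.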

How the data were processed

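Liver RNA for the 16 arrays was column-purified and labelled with biotin for whole-transcript arrays, per the labels' protocols. The values deposited are log2 RMA values, per the submitters' processing notes. The software version is not given in these sources. No scanner files were used, so the signal over background is not known and precision is limited by the number of arrays. Of 35556 probe sets 21789 carry 1 gene symbol, 1621 several and 12146 none, and only the first kind was used. Symbols were checked by gene identifier against RefSeq genes of GRCm38.p6 (21698 matched, 0 changed). Probe sets had to exceed the array's 30th percentile on 4 or more arrays. Where a gene had several, the one with the highest mean stood for it, and 15908 genes remained. Array medians ran from 6.25 to 6.42.

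The model was fitted by limma 3.58.1 under R 4.3.3 (4 group means over 16 arrays, 12 residual degrees of freedom, eBayes with a prior of 4.28), two-sided, with Benjamini-Hochberg adjustment and a threshold of 0.05. Pairs of active-site subunits were compared by exact permutation over 70 arrangements. The script was tested on simulated data. Figures and motif searches used Python 3.11.15, pandas 2.3.3 and matplotlib 3.10.9. The 10 genes and the lists were chosen with earlier results of these data known. Genes outside the 10 were named by rule: the standard active-site counterparts, set genes of the lists, up to 4 genes of lowest p per list in the WT comparison, and the 5 genes most alike. Mr1, the genes of the high-level range, the single markers named, Dbp and Arntl were named after their values were seen, as were the printed promoter windows. Alternatives covered the filter, the handling of several probe sets, centring, a second quantile normalization, array weights, trend and robust fitting, a replicate block, fits of only the groups compared and leaving out arrays.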

Additional observations from a re-analysis of the deposited data

Results flagged for a closer look

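Each of the 40 sets of 4 arrays (10 genes in 4 groups) was checked for an array far from the other 3. In 2 of them the gap to the nearest array took up more of the range than Dixon's 95% critical value. Chance gives about 5% of sets, which is the share found here. Both concern Psmb8 and array 3 of an S534A group. Psmb8 was at 9.58 in array 3 of the S534A livers given LPS, below the other arrays at 9.80 to 9.81, a gap of 0.958 of the range. It was at 8.06 in array 3 of the untreated S534A livers, above the other arrays at 7.92 to 7.94, a gap of 0.855 of the range. The cause was not tested.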

How the results depend on the processing

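Across 360 alternative values of the LPS changes of the 10 genes, each kept its side of the threshold, and Tap1 ran from 3.08 to 3.28 in S534A livers and from 2.98 to 3.17 in WT livers. B2m, which was not called, ran from -0.08 to 0.08 in S534A livers and from -0.07 to 0.04 in WT livers. The 600 alternative values of the genotype differences and the interaction stayed uncalled, and 55 changed sign. Over all genes, the count that differed between untreated S534A and WT livers, 2 as reported, was 4 with median centring, 370 with array weights, 4 with trend and robust fitting, 0 with the replicate block, 0 when only the groups compared were fitted, 1 without the 3 untreated arrays low in Dbp, and 0 to 4 when 1 array was left out. The interaction, with 0 as reported, gave 3 genes with array weights and 0 to 2 when 1 array was left out. Array weights also called, in untreated S534A against WT livers, Tapbpl (-0.29, adjusted p = 0.0491), Psmf1 (-0.25, 0.0419), Cfl1 (-0.28, 0.0448) and Jak2 (0.38, 0.0395). The cause of these moves was not tested. Without those 3 arrays the subunit pairs in WT livers shifted by 1.77 (Psmb8 minus Psmb5), 2.12 (Psmb9 minus Psmb6) and 1.53 (Psmb10 minus Psmb7), each with exact permutation p = 0.0667, the smallest that 4 against 2 arrays allow. Median centring moved the median of all genes by -0.10 in both LPS comparisons, and the share of calls that rose was 21.5% instead of 31.3% in S534A livers and 22.1% instead of 33.3% in WT livers. No pairing of the arrays by replicate number was seen over all pairs, which does not exclude it between some groups. Over 24 same-number pairs the correlation of deviations ran from -0.492 to 0.588 (median -0.0519, against 0.0297 for other pairs). Of the 24 pairs 9 were over 0.1, and 5 of 24 correlated best with their own number. With the replicate block, 7092 genes were called after LPS in S534A livers instead of 7225 and 6988 in WT livers instead of 7139, and Psmb6 in WT livers had an adjusted p of 0.0523 and Psmb7 in S534A livers 0.062. For other named genes, 38 of 1474 alternative values after LPS lost the call, 12 gained it and 0 turned round.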
